A study of Rattus norvegicus with 2 samples.

Results

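The transcripts of 10 two-pore domain (K2P) potassium channel genes were examined in sympathetic neurons of the stellate ganglion, the ganglion that holds many of the cell bodies innervating the heart. The members are Kcnk1, Kcnk2, Kcnk3, Kcnk4, Kcnk5, Kcnk6, Kcnk9, Kcnk10, Kcnk13 and Kcnk18. They were taken by gene symbol from the 25395 genes with a unique name, and all 10 were listed. Dissociated ganglia of 5- to 6-week-old male rats had been sequenced cell by cell (scRNAseq) in 1 library from Wistar rats, the normotensive group, and 1 library from SHRs (spontaneously hypertensive rats) before the onset of hypertension. The labels name no treatment for either group. Wistar rats are an outbred stock and SHRs an inbred strain, so the groups differ at many loci. How many animals and neurons stand behind each library is not given in the sources used here. For each library the deposited value of a gene is a mean over the neurons of the sympathetic cluster, given here as mean counts per 10000 counts of a cell. A mean over cells cannot tell fewer expressing neurons from fewer transcripts per neuron, or either from a different mix of neuron populations. The authors describe distinct sympathetic neuron populations that differ mainly in neuropeptide Y, and their mix in each library is not known here. Since a single library stands for each strain, the spread between animals is unknown, no comparison could be tested, and every difference is described by its size alone.

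K2P channels carry the background, or leak, potassium current that holds the resting membrane potential of a neuron negative. Each subunit has a pair of pore domains and a channel is formed by a pair of subunits. They open with little dependence on voltage and are set instead by membrane stretch, temperature, lipids, pH and G protein signalling. The subfamilies are named TREK (Kcnk2, Kcnk10, Kcnk4), TASK (Kcnk3, Kcnk9), TWIK (Kcnk1, Kcnk6), THIK (Kcnk13), TALK (Kcnk5) and TRESK (Kcnk18). Because the reads were taken from the 3' end of each transcript, a count does not grow with transcript length, and the levels of different genes were compared without dividing by length.

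The K2P transcripts of the neurons were mostly those of the TREK channels and TASK-1. Kcnk2 had the highest level in both strains, followed by Kcnk10 and Kcnk3. These 3 genes and Kcnk4 were higher in SHR, and the other 6 members were lower. Of the lower ones, Kcnk5, Kcnk6, Kcnk9 and Kcnk18 had too few counts in SHR to read a direction from. The summed level of the 10 members was 0.522 per 10000 in Wistar neurons and 0.703 in SHR neurons, a ratio of 1.35. Over all 92 genes whose symbol starts with Kcn, which encode potassium channel subunits and their partners, the sum was 9.54 per 10000 in Wistar neurons and 7.31 in SHR neurons. The members therefore made up 5.48% of the Kcn transcripts in Wistar and 9.62% in SHR, and these shares do not depend on how the libraries are scaled to each other.

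**Figure D1:**
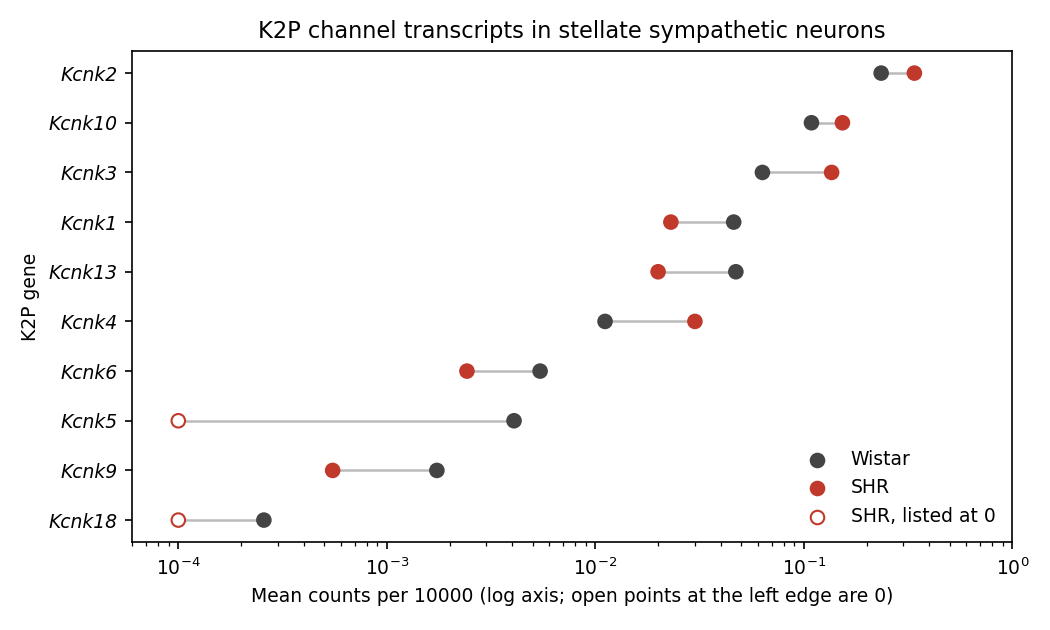
Level of each of the 10 K2P genes in the Wistar library (dark points) and the SHR library (red points), as mean counts per 10000 on a log axis, ordered by the average of both. Kcnk2, Kcnk10, Kcnk3 and Kcnk4 were higher in SHR, and Kcnk5 and Kcnk18 were listed at 0 in SHR (open points).

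Kcnk2 encodes TREK-1, a channel opened by membrane stretch, warming and polyunsaturated fatty acids and closed by receptors that signal through Gq. Its mean was 0.235 per 10000 in Wistar neurons and 0.339 in SHR neurons, a ratio of 1.44 and a log2 difference of 0.12. The log2 difference is that of 1 plus the mean, SHR minus Wistar, which makes the differences of genes at such low levels look small. Kcnk2 ranked 5687 among all genes in Wistar and 3922 in SHR. A rank can rise without a higher level, since most genes were lower in SHR. The K2P gene Kcnk12, for example, moved from 10109 to 9399 at a ratio of 0.965. Kcnk10 encodes TREK-2, the closest relative of TREK-1. Its mean was 0.109 per 10000 in Wistar neurons and 0.153 in SHR neurons, with a ratio of 1.41 and a log2 difference of 0.06. The ratios of the pair differed by little, and the order of Kcnk2 above Kcnk10 was the same in both strains. Kcnk4 encodes TRAAK, the third mechanically gated member of the group. The Kcnk4 level was 0.0111 per 10000 in Wistar neurons and 0.0300 in SHR neurons, a ratio of 2.70, the highest ratio among the 10 members, at a level far below that of the other TREK genes. Together the TREK genes had 0.354 per 10000 in Wistar neurons and 0.522 in SHR neurons, which was 67.8% of the summed level of the members in Wistar and 74.2% in SHR.

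Promoter sequences of 5 of the 10 members could be matched in RefSeq (build GRCr8), each running from 250 bases before to 50 bases after an annotated start. The build named in the submitters' processing notes for the expression values is Rnor_6.0, so the coordinates belong to the promoters alone. The sequences of Kcnk2 and Kcnk4, both higher in SHR, and of Kcnk13, lower in SHR, are given 5′ to 3′ on the strand of the gene, with CpG dinucleotides in capitals. Kcnk2 lies at chr13:103494637-103494936 on the minus strand, Kcnk4 at chr1:213555812-213556111 on the minus strand and Kcnk13 at chr6:124971559-124971858 on the plus strand.
Kcnk2: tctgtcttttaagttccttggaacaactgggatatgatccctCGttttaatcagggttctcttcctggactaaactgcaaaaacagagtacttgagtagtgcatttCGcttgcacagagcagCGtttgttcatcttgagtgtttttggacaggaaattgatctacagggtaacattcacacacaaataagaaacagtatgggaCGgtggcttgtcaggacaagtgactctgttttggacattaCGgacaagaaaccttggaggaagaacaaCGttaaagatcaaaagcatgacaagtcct
Kcnk4: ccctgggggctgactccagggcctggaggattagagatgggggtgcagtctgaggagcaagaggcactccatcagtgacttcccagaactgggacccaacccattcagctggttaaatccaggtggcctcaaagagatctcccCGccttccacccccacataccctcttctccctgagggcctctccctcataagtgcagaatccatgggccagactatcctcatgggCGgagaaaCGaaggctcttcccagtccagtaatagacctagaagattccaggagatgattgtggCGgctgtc
Kcnk13: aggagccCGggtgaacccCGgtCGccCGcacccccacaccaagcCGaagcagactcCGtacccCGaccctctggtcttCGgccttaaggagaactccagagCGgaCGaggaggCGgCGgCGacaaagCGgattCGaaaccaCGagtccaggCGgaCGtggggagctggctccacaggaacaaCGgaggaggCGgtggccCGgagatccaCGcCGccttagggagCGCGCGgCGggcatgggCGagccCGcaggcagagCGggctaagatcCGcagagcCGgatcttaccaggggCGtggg
The Kcnk2 window holds 6 CpG dinucleotides and that of Kcnk4 holds 4, against a median of 7 over the 33469 rat promoters of the same length. The Kcnk13 window holds 33, and 7.53% of all promoters hold at least that many. A further Kcnk2 start (chr13:103438593-103438892, minus strand) has 9 CpG dinucleotides, Kcnk5 (chr15:4171375-4171674, plus strand) has 30 and Kcnk18 (chr1:268360488-268360787, plus strand) has 7. On both strands, the GC box letters GGGCGG were found 4 times in the Kcnk5 window and 1 time in that of Kcnk4, and 33.1% of all promoters hold them. The E-box letters CANNTG, present in 72.1% of all promoters, were found 2 times each in the windows of Kcnk4, Kcnk18 and the Kcnk2 start printed here, 1 time in that of Kcnk5, and in neither the Kcnk13 window nor that of the further Kcnk2 start. None of the 6 windows holds the TATA box letters TATAAA, found in 14.2% of all promoters. The CCAAT box, found in 37.5%, was also absent from them. The same held for the AP-1 letters TGANTCA, found in 7.33%. These matches describe the letters of the windows and were not tied to the levels.

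Kcnk3 encodes TASK-1, a channel closed by extracellular acid and by Gq-coupled receptors. Its mean was 0.0632 per 10000 in Wistar neurons and 0.136 in SHR neurons, a ratio of 2.15 and a log2 difference of 0.10. In rank, Kcnk3 moved from 8960 to 6395 among all genes, with the same limit on ranks as for Kcnk2. In Wistar its level was close to those of Kcnk1 and Kcnk13, whereas in SHR it was close to that of Kcnk10. Kcnk3 took 12.1% of the summed level of the members in Wistar and 19.3% in SHR. Kcnk9 encodes TASK-3, the partner with which TASK-1 can form mixed channels. Kcnk9 was found at 0.00174 per 10000 in Wistar neurons and 0.00055 in SHR neurons, so TASK transcripts in these neurons were almost only those of Kcnk3.

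Kcnk1 encodes TWIK-1, a weakly inward rectifying channel that is largely kept inside the cell. Its mean was 0.0460 per 10000 in Wistar neurons and 0.0230 in SHR neurons, a ratio of 0.50. Kcnk6, encoding TWIK-2, which is known from vascular and immune cells, had 0.00543 per 10000 in Wistar neurons and 0.00242 in SHR neurons. Kcnk13 encodes THIK-1, a halothane-inhibited channel known as the main leak channel of microglia. Kcnk13 had a mean of 0.0472 per 10000 in Wistar neurons and 0.0200 in SHR neurons, a ratio of 0.424. The 6 members that were lower in SHR summed to 0.105 per 10000 in Wistar neurons and 0.0460 in SHR neurons, and most of that sum was Kcnk1 and Kcnk13. Kcnk5, the alkaline-activated TASK-2 channel gene, was found at 0.00407 per 10000 in Wistar neurons and at 0 in SHR neurons. Kcnk18, encoding TRESK, a calcineurin-regulated channel known from sensory ganglia, was found at 0.000257 per 10000 in Wistar neurons and at 0 in SHR neurons.

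**Figure D2:**
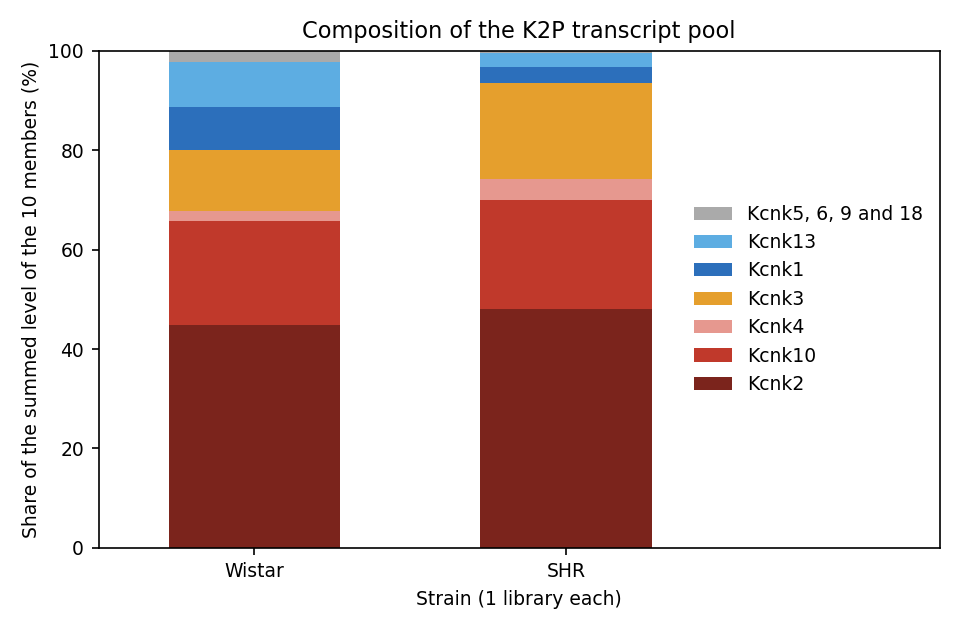
Share of each K2P gene in the summed level of the 10 members (in %, stacked) in the Wistar and the SHR library. Kcnk2 took 44.9% in Wistar and 48.1% in SHR, while Kcnk1 and Kcnk13 took 8.82% and 9.03% in Wistar and 3.27% and 2.84% in SHR.

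The low levels set how far these values can be read. In each library, small values recur exactly in several genes, and such a value was taken here as what 1 count in 1 neuron adds to the mean. Values shared by at least 3 genes numbered 197 in Wistar, with a median of 0.000324 per 10000, and 109 in SHR, with a median of 0.000888. Measured in these medians, Kcnk2 amounted to about 724 counts in Wistar and 381 in SHR, and Kcnk3 to about 195 and 153. Kcnk4 amounted to about 34.4 counts in Wistar and 33.8 in SHR, so its ratio of 2.70 rests on few counts. Kcnk1 and Kcnk13 amounted to about 142 and 146 counts in Wistar but to only 25.9 and 22.5 in SHR. Kcnk6 amounted to 2.73 counts in SHR. The SHR value of Kcnk9 was shared by 23 other genes and the Wistar value of Kcnk18 by 2, and set against the smallest value of its library each holds at most 1 count. In SHR, Kcnk5, Kcnk6, Kcnk9 and Kcnk18 all amounted to fewer than 3 counts, too few to read a size or a direction of difference from. A count is worth more in the SHR library, where 10750 genes were listed at 0, against 9395 in Wistar. These equivalents are approximate, since 1 count weighs more in a neuron with a small total, and they give no error between animals. The repeated values reached 0.00776 per 10000 in Wistar and 0.0186 in SHR, the latter close to the SHR levels of Kcnk1 and Kcnk13.

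Most genes were lower in SHR, and the K2P genes were read against that. Of the 7621 genes that averaged at least 0.1 per 10000 over both libraries, 65.6% were lower and 34.4% were higher in SHR, with a median ratio of 0.863. Both members past this minimum, Kcnk2 and Kcnk10, were higher. Among these genes, 7.09% had a ratio at least as high as Kcnk2 and 8.35% one at least as high as Kcnk10. Of the 4011 genes that averaged 0.01 to 0.1 per 10000, 26.3% were higher and 73.7% lower, with 4.69% at least 2-fold higher and 33.8% at least 2-fold lower. Of the 4 members in this range, Kcnk3 and Kcnk4 were at least 2-fold higher and Kcnk1 and Kcnk13 at least 2-fold lower. Kcnk3, at an average of 0.0995, lay just under the minimum of 0.1. Ratios as high as those of Kcnk3 and Kcnk4 were reached by 4.12% and 2.46% of the genes of the range above 0 in both libraries, while 33.4% and 26.2% had ratios as low as those of Kcnk1 and Kcnk13. The 4 members under 0.01 per 10000 were all lower, as were 67.3% of the genes of that range. When SHR was scaled up so that genes past 0.1 had a median log2 difference of 0, or so that the sympathetic neuron markers had equal sums, the share of genes past 0.1 that were lower dropped to as little as 48.2%. The 4 higher members stayed above and Kcnk1, Kcnk6, Kcnk9 and Kcnk13 below the Wistar level under all 4 scalings tried. This was fixed by the size of the scalings, which multiplied the ratios by 1.00 to 1.18. Kcnk1 did not keep its 2-fold size, with a highest ratio of 0.589.

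**Figure D3:**
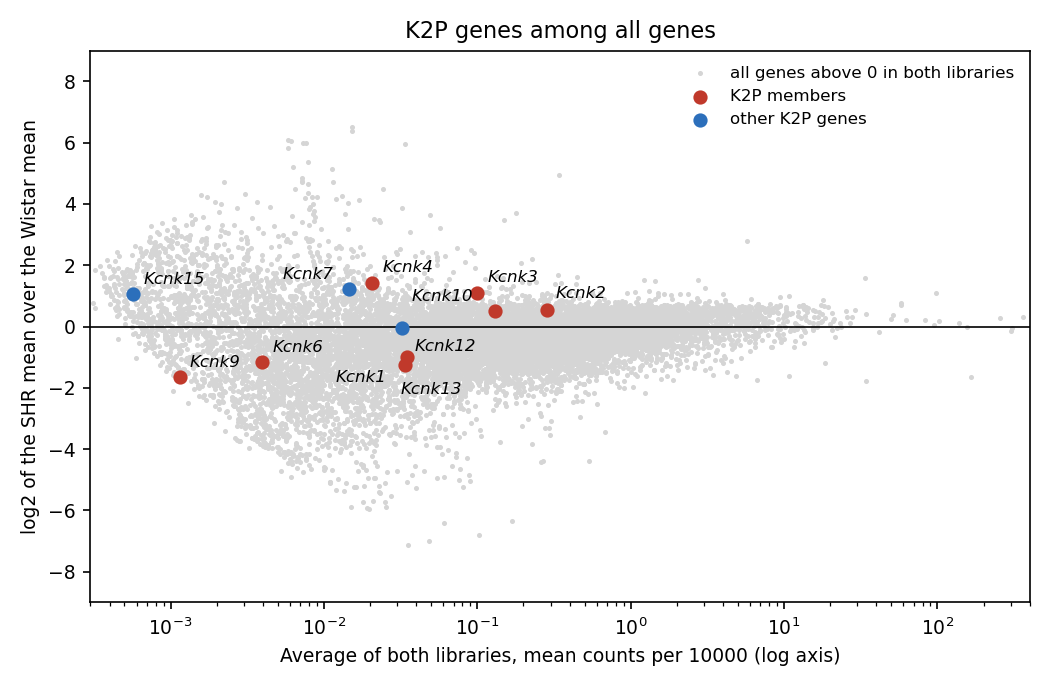
Log2 of the SHR mean over the Wistar mean (vertical axis) against the average of both libraries in mean counts per 10000 (log axis) for genes above 0 in both and averaging at least 0.0003, with the 8 K2P members that have a ratio in red and the other K2P genes in blue. Kcnk3 and Kcnk2 lay toward the upper side of the cloud for their level, with ratios of 2.15 and 1.44, while Kcnk1 and Kcnk13 lay within it.

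Transcripts of other cell types in the neuron cluster were also lower in SHR, beside the 6 members that were lower. The cluster carried its defining transcripts in both strains. Slc6a2, the norepinephrine transporter gene, had 15.9 per 10000 in Wistar neurons and 15.2 in SHR neurons, and Th, the gene of the rate-limiting enzyme of catecholamine synthesis, had 10.2 and 10.1. Dbh, which encodes the enzyme that makes norepinephrine, had 10.2 and 6.36. The 10 sympathetic markers all averaged at least 0.1 per 10000, a range in which 65.6% of all genes were lower in SHR. Of these markers, 8 were lower and 2 higher in SHR (5 to 8 lower under the 4 scalings), and their sum was 57.9 and 49.1 per 10000. The lowest ratio was 0.488 for Ddc and the highest 1.81 for Hand2, both named after their values were seen. Of 36 markers of glia, fibroblasts, endothelium, smooth muscle, immune cells and erythrocytes, 35 were above 0 in at least one library, and 31 of these were lower in SHR and 4 higher, beside 65.6%, 73.7% and 67.3% of all genes lower in the 3 ranges of level. Their sum was 6.56 per 10000 in Wistar neurons and 2.17 in SHR neurons, a ratio of 0.330. By list, the sums had ratios of 0.389 for glial, 0.192 for fibroblast, 0.457 for endothelial and 0.565 for smooth muscle markers. The ratio was 0.329 for immune and 0.746 for erythrocyte markers. The 4 markers that were higher were Ptprc (immune), Acta2 and Tagln (smooth muscle) and Hba-a2 (erythrocyte). The immune markers Cd74, Aif1 and C1qa were above 0 in both strains, as were the glial marker Mbp and the fibroblast markers Col3a1, Col1a1 and Dcn. The same held for the endothelial markers Cldn5, Cdh5 and Kdr and the smooth muscle markers Myh11, Acta2 and Tagln. Rgs5, a pericyte marker, was listed at 0 in SHR, and Alas2, an erythrocyte marker, at 0 in both. Kcnk2, Kcnk3, Kcnk4 and Kcnk10 were higher in SHR while these sums were lower. The part of these transcripts in the levels of the members, the 6 lower and the higher ones alike, was not tested.

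The 4 other K2P genes examined were low, and Kcnk17 was not analysed here. Kcnk12, encoding THIK-2, was the highest of them, with 0.0327 per 10000 in Wistar neurons and 0.0316 in SHR neurons, a ratio of 0.965 that became 1.14 when the sum of the sympathetic neuron markers was made equal. Kcnk12 and Kcnk13, the THIK pair, thus stood at different ratios. Kcnk7, a TWIK relative for which no current is known, had 0.00878 per 10000 in Wistar neurons and 0.0206 in SHR neurons, and is short of 30 count equivalents in each. Kcnk15, encoding TASK-5, was found at 0.000366 and 0.000767 per 10000, and Kcnk16, encoding TALK-1 of the pancreas, at 0 in both.

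Of the other conductances that act near the resting potential, the NALCN, HCN and Kcnq lists had lower sums in SHR and the inward rectifiers a higher one. Their counts are to be read against all genes averaging at least 0.1 per 10000, of which 65.6% were lower in SHR and 11.3% at least 2-fold lower. The sodium leak channel NALCN, which depolarizes neurons at rest, works with the large subunits UNC79 and UNC80. Nalcn had 0.162 per 10000 in Wistar neurons and 0.0821 in SHR neurons, Unc79 had 0.238 and 0.0560, and Unc80 had 0.146 and 0.113. All 3 were lower, which with 3 genes is little beyond the 65.6% of all genes, and Unc79 alone was lower by at least 2-fold. The 4 genes analysed of this complex summed to 0.552 and 0.259 per 10000.

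HCN channels carry a depolarizing current that is switched on by hyperpolarization. Hcn3 had 0.558 per 10000 in Wistar neurons and 0.339 in SHR neurons, Hcn4 had 0.243 and 0.142, and Hcn2 had 0.0832 and 0.0691. Both HCN genes past the minimum were lower, as most genes were, neither by 2-fold, and the 4 genes summed to 0.930 and 0.592. Kcnq genes encode the M current channels, the other standing potassium conductance of sympathetic neurons. Kcnq5 had 0.837 per 10000 in Wistar neurons and 0.369 in SHR neurons, and Kcnq3 had 0.267 and 0.233. The 5 Kcnq genes summed to 1.13 per 10000 in Wistar neurons and 0.609 in SHR neurons, so the K2P sum was below the Kcnq sum in Wistar and above it in SHR. Both Kcnq genes past the minimum were lower, again as most genes were, Kcnq5 by at least 2-fold, but the number lower was 1 under some scalings. Inward rectifiers pass potassium near and below rest. Kcnj12, a strong inward rectifier gene and the only one of 11 past the minimum, had 0.159 per 10000 in Wistar neurons and 0.261 in SHR neurons, a ratio of 1.64. Kcnj11, the pore of the ATP-sensitive channel, had 0.0346 and 0.0526, and Kcnj9, a G protein-gated subunit, had 0.0368 and 0.0178. The 11 genes, of which Kcnj2, Kcnj4 and Kcnj6 were listed at 0 in both strains, summed to 0.270 and 0.360.

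**Figure D4:**
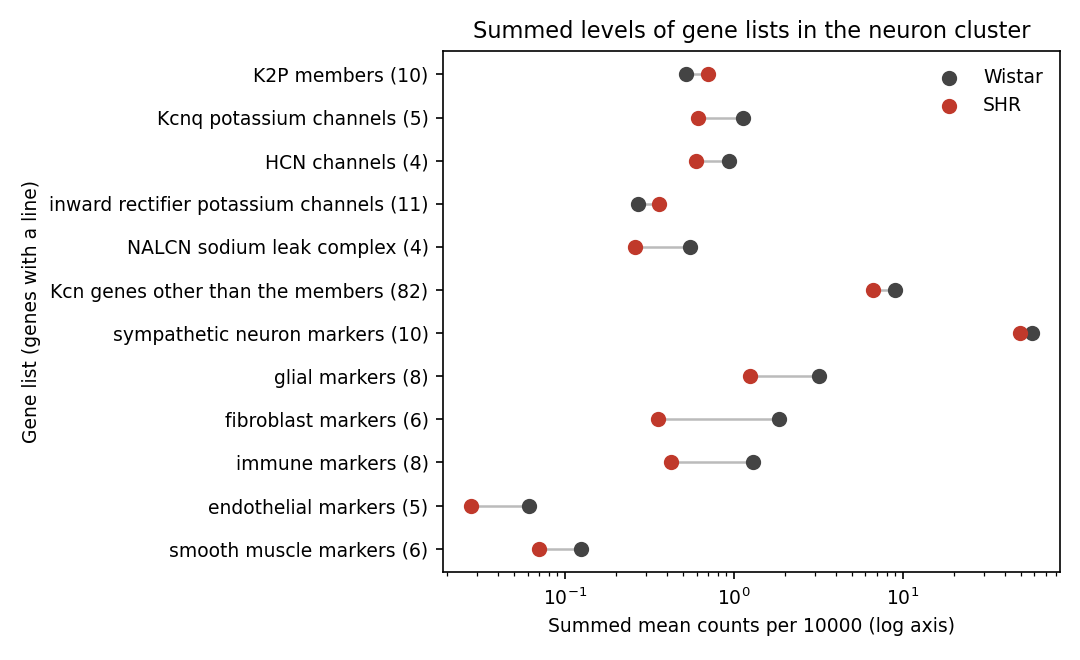
Summed mean counts per 10000 (log axis) of selected gene lists in the Wistar (dark) and SHR (red) library, with the number of genes in parentheses. The K2P members and the inward rectifiers had higher sums in SHR (ratios 1.35 and 1.33), and the other lists plotted had lower ones, while the genes that bind or regulate K2P channels (ratio 1.25) and the other K2P genes (1.26), both higher in SHR, are not plotted.

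Genes whose products are known to bind K2P channels or to regulate them were more often higher than lower in SHR. Of 20 such genes, 16 passed the minimum, of which 10 were higher and 6 lower, none by 2-fold, against the 34.4% of all genes that were higher. That share covers every level past the minimum, whereas Ywhah, S100a10 and Ywhag averaged 19.3, 13.4 and 13.0 per 10000. No share was taken for genes at such levels, so the list cannot be called raised beyond genes like it in level. Under the 4 scalings the number lower was 4 to 6. Ywhah, a 14-3-3 protein gene of the family that binds TASK and TRESK channels, had 15.1 per 10000 in Wistar neurons and 23.4 in SHR neurons, a ratio of 1.55. S100a10, whose product p11 binds TASK-1, had 10.4 and 16.3, a ratio of 1.56, close to that of Ywhah. Ywhag, a further 14-3-3 gene, had 11.7 and 14.2. These partners were present at levels far above those of the channels. Map2, encoding the microtubule-associated protein that binds TREK-1, went the other way, with 10.3 per 10000 in Wistar neurons and 6.43 in SHR neurons. It was named after its values were seen.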

How the data were processed

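Dissociated cells were sequenced with 10x Genomics 3' chemistry (v3), on an Illumina HiSeq. The submitters' processing notes name Cell Ranger 3.0.2, Seurat 3 and the build Rnor_6.0. Filters on cells and the treatment of doublets are not given in the sources used here. The files deposited by the authors hold, for either strain, a single value per gene on the natural log scale, log(1 + mean), where the mean is taken over sympathetic cluster neurons in counts per 10000. A table of the authors' comparison of the strains (fold changes, p-values and 2 columns of shares of cells that name no strain) was not used.

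Values were converted back with the exponential minus 1 (Python 3.11.15, NumPy 2.4.6, pandas 2.3.3). The means of the 25399 lines summed to 10000 in each library. A name repeated after conversion to a date affected 4 lines, which were left out. In all, 25 names had become dates. Ratios are SHR over Wistar. Log2 differences use a pseudocount of 1. Counts over lists use genes averaging at least 0.1 per 10000 over both libraries, and calls of size a 2-fold ratio. No test was possible with 1 library per strain. A planned comparison of protein sequences was not made. Alternatives were other pseudocounts, scalings, minimums and a 1.5-fold limit. The calculations were checked on simulated data. The members and lists were chosen with earlier results of these data known. Named are all members, the other K2P genes, and the 3 highest genes of each further list, except a few that are not reported here. Marker genes, Map2 and genes listed at 0 were named after their values were seen.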

Additional observations from a re-analysis of the deposited data

How the results depend on the processing

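No paired analysis was possible because there is only 1 library of either strain, and none could be left out. None of the 8 members above 0 in both libraries changed direction under the 4 scalings tried. The scalings multiplied the ratios by 1.03, 1.00, 1.16 and 1.18, too little to turn any of these members, so they do not check direction. A pseudocount cannot turn a direction, nor can a scaling for Kcnk5 and Kcnk18, at 0 in SHR. The summed K2P ratio of 1.35 became 1.38 when the totals left out mitochondrial and ribosomal protein genes, 1.56 with the median log2 difference past the minimum set to 0, and 1.59 with equal sums of sympathetic neuron markers. Under the same 3 scalings the count of members in the range of 0.01 to 0.1 at least 2-fold lower went from 2 to 1. These scalings of that count were added after the data were examined. The count of members lower, 0 past the minimum of 0.1, was 2 at a minimum of 0.01 and 6 with no minimum. Of all genes, 65.6% were lower past 0.1, 73.7% from 0.01 to 0.1 and 67.3% under 0.01. No member passed a minimum of 1. With no minimum, the NALCN list had 1 gene higher, the inward rectifiers 4 lower and 4 higher, the HCN list 4 lower, and the Kcnq list 4 lower and 1 higher. With a limit of 1.5-fold, 2 genes of the binding and regulating list were lower and 3 higher, 2 NALCN and 2 HCN genes were lower, and 1 inward rectifier was higher. Fewer or more genes pass by construction of these limits. No share of all genes was taken with no minimum or at 1.5-fold, so these list counts cannot be set against one.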

Other observations

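Among the 82 Kcn genes other than the members, 57 were above 0 and 17 averaged at least 0.1 per 10000. Among these, 13 were lower in SHR (11 to 13 under the 4 scalings) and 5 were at least 2-fold lower, beside 65.6% lower and 11.3% at least 2-fold lower among all genes past that minimum. Among them were Kcnq5, Kcnt1, Kcnn3 and Kcna3, with ratios of 0.441, 0.314, 0.479 and 0.445. The lowest ratio was that of Kcnt1, which encodes a sodium-activated potassium channel and had 0.477 per 10000 in Wistar and 0.150 in SHR. The 4 that were higher were Kcnj12 (ratio 1.64), Kcnh1, encoding an ether-a-go-go channel (1.30), Kcnab1, an accessory subunit of Kv1 channels (1.19), and Kcnd1, an A-type channel gene (1.00, with 0.273 per 10000 in Wistar and 0.274 in SHR). Kcnk2 and Kcnk10, at 1.44 and 1.41, thus stood with Kcnj12 and Kcnh1 among the potassium channel genes past the minimum. These genes were named after their values were seen, and no difference has a replicate check.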
